A study of Mus musculus with 6 samples.

Results

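Havcr2 encodes TIM-3, an inhibitory receptor of effector T cells, and the cells described here are CD8 T cells from mouse mammary tumours that carried its transcript and were not cycling. They were chosen from raw counts of unique molecular identifiers (UMIs), each of which marks 1 captured RNA molecule. A member had at least 200 detected genes, at most 15% mitochondrial UMIs, less than 1% of its UMIs in C1qa, C1qb and C1qc, at least 2 UMIs of Cd3d, Cd3e and Cd3g together, at least 1 of Cd8a and Cd8b1 together, none of Cd4, fewer than 2 of Mki67 and Top2a together, and at least 1 of Havcr2. This rule found 568 members among 40418 cells kept. The same rule with Havcr2 at 0 found 1291 cells, called Havcr2-zero cells below.

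The tumours grew from Py8119, a mouse mammary tumour cell line, in female mice, and live CD45+ cells were sorted from them 4 weeks after injection. Each of the 6 groups had 1 library. The intact knockout (KO) library came from Mtdh KO mice that received no marrow, and the intact wild-type (WT) library from Mtdh wild-type mice that received none. The 4 others came from irradiated hosts given donor marrow 8 weeks before the tumour cells: KO marrow in KO hosts, WT marrow in KO hosts, KO marrow in WT hosts and WT marrow in WT hosts. The host genotype is that of the mouse carrying the tumour and the immune genotype is that of the marrow; in the intact mice both are the same. The part of Mtdh that was deleted, the number of mice behind a library and the share of host immune cells that survived irradiation are not given in the sources used here.

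As background, naive and memory CD8 T cells express Tcf7, Lef1 and Klf2 and recirculate through lymph nodes, while effector cells make perforin and granzymes, which are stored in granules and released onto target cells. Repeated antigen exposure in tumours is accompanied by surface receptors that damp the T cell response, among them PD-1 (Pdcd1), LAG-3 (Lag3), CTLA-4 (Ctla4) and TIM-3. Macrophages and dendritic cells also express TIM-3, so Havcr2 alone does not mark a T cell.

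Members numbered 94 in the intact KO library, 402 under KO marrow in KO hosts and 24 under WT marrow in KO hosts, against 10 in the intact WT library, 30 under KO marrow in WT hosts and 8 under WT marrow in WT hosts. Sums over members held 55833 to 3538494 UMIs per library, out of 85616443 to 142779550 UMIs in whole libraries. One UMI was therefore worth 0.283 counts per 1000000 (CPM) under KO marrow in KO hosts, the library with the most members, and 17.9 CPM under WT marrow in WT hosts, the one with the fewest. Most members lay close to the Havcr2 threshold in the transplanted libraries: Havcr2 had exactly 1 UMI in 221 of 402, 13 of 24, 20 of 30 and 7 of 8 members there, in the order KO marrow in KO hosts, WT marrow in KO hosts, KO marrow in WT hosts and WT marrow in WT hosts. In the intact libraries it had 1 UMI in 31 of 94 members from KO mice and 1 of 10 from WT mice, and the highest Havcr2 count in a member of any library was 21. Just outside the threshold stand the Havcr2-zero cells, 215, 666 and 42 in the 3 KO-host libraries in the order intact KO, KO marrow, WT marrow, against 62, 188 and 118 in the 3 WT-host libraries in the order intact WT, KO marrow, WT marrow. Of all kept barcodes, 213 occurred in more than 1 library; 5 member barcodes occurred as kept cells of another library and 0 as its members.

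The rule itself required Cd3 and Cd8 UMIs, so their levels describe the members and do not test the label: Cd8a had 274 to 1049 CPM and Cd8b1 379 to 1411 CPM. Macrophages (a C1q share of at least 1%) and B cells were in turn taken without any Cd3 UMI. Havcr2, also used by the rule, was at 156 to 227 CPM in members, 55.3 to 122 CPM in macrophages and 0 to 32.8 CPM in B cells.

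Markers of other cell types, which the rule did not use apart from Cd4 and the C1q genes, check the label further. Markers of other lymphocytes were low in members: the 5 B cell markers summed to at most 87.3 CPM, the 3 natural killer (NK) cell markers to at most 32.9 CPM with Ncr1 at 0 in all 6 libraries, and the 3 gamma-delta T cell markers to at most 16.5 CPM. The 4 neutrophil markers summed to at most 174 CPM, and the 5 dendritic cell markers to at most 250 CPM. That highest dendritic sum, under WT marrow in KO hosts, was all Ccr7, with the other 4 markers at 0.

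Macrophage RNA was also present in some members. More than 1% of the UMIs lay in 5 macrophage genes (Lyz2, Csf1r, Adgre1, Apoe and Fcgr1) in 31 of 94 members from intact KO mice, 25 of 402 under KO marrow in KO hosts and 1 of 24 under WT marrow in KO hosts, against 4 of 10 from intact WT mice, 3 of 30 under KO marrow in WT hosts and 0 of 8 under WT marrow in WT hosts. Havcr2-zero cells passed this mark in 11 of 215, 33 of 666 and 0 of 42 cells in KO hosts (intact KO, KO marrow, WT marrow). In WT hosts they did so in 0 of 62, 3 of 188 and 4 of 118 (intact WT, KO marrow, WT marrow). The mark was thus passed by a larger part of members than of Havcr2-zero cells in every library except WT marrow in WT hosts. The gap was widest in the intact libraries, and under KO marrow in WT hosts it was 10.0% against 1.60%. In the intact KO library those 31 members had a median of 26131 UMIs, against 9753 in the other members, and 14 of them were among the 6% of cells with the highest doublet scores. The summed level of all 6 fixed macrophage markers was 13374, 5175 and 3418 CPM in members from KO hosts (intact KO, KO marrow, WT marrow), against 24587, 12484 and 2239 CPM in members from WT hosts (intact WT, KO marrow, WT marrow). Adgre1 and Fcgr1 were at 0 in members under WT marrow in WT hosts, and Fcgr1 was at 0 under WT marrow in KO hosts. Each gene result below is therefore also given, where it matters, over members with at most 1% of UMIs in those 5 genes, called macrophage-low members; that limit was chosen after the data were seen.

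Mtdh itself followed the label of the marrow. Members held 16.4 CPM of Mtdh in intact KO mice, 13.9 CPM under KO marrow in KO hosts and 16.9 CPM under KO marrow in WT hosts, against 128 CPM in intact WT mice, 98.8 CPM under WT marrow in KO hosts and 92.0 CPM under WT marrow in WT hosts. The KO and WT ranges did not overlap, and Mtdh was lower with the KO immune genotype, with -2.77 ± 0.46 (SE) as the log2 fold change (adjusted p = 0.00104). Without the library of WT marrow in KO hosts the log2 fold change was -2.53 with an adjusted p of 0.81. Host genotype left Mtdh at -0.13.

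The adjusted p-values come from edgeR's robust quasi-likelihood test on UMIs summed over members of a library, with Benjamini-Hochberg adjustment over all genes tested. The model had a term for transplantation, one for host genotype and one for immune genotype, which leaves 2 residual degrees of freedom from 6 libraries. Because the intact mice differ in both genotypes at once, the 4 transplanted libraries decide which genotype a difference is assigned to. The p-values rest on how far the 6 libraries depart from additive effects of these terms, with error estimates shared across genes. They do not measure the spread between replicates of a group, since each group had 1 library. CPM values are scaled by TMM (trimmed mean of M-values) factors.

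Members made up a larger share of non-cycling CD8 T cells in every KO-host library than in any WT-host library. The share was 30.4% in intact KO mice (95% exact Clopper-Pearson interval 25.3 to 35.9%), 37.6% under KO marrow in KO hosts (34.7 to 40.6%) and 36.4% under WT marrow in KO hosts (24.9 to 49.1%). It was 13.9% in intact WT mice (6.87 to 24.1%), 13.8% under KO marrow in WT hosts (9.48 to 19.1%) and 6.35% under WT marrow in WT hosts (2.78 to 12.1%). The 3 KO-host values and the 3 WT-host values did not overlap. The mean log2 ratio of KO to WT hosts was 1.70, with a two-sided exact permutation p of 0.1, the smallest that 3 libraries against 3 allow. Over macrophage-low cells it was 1.80. The shares there were 23.6, 37.3 and 35.4% in KO hosts (intact KO, KO marrow, WT marrow), against 8.82, 12.7 and 6.56% in WT hosts (intact WT, KO marrow, WT marrow).

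**Figure D1:**
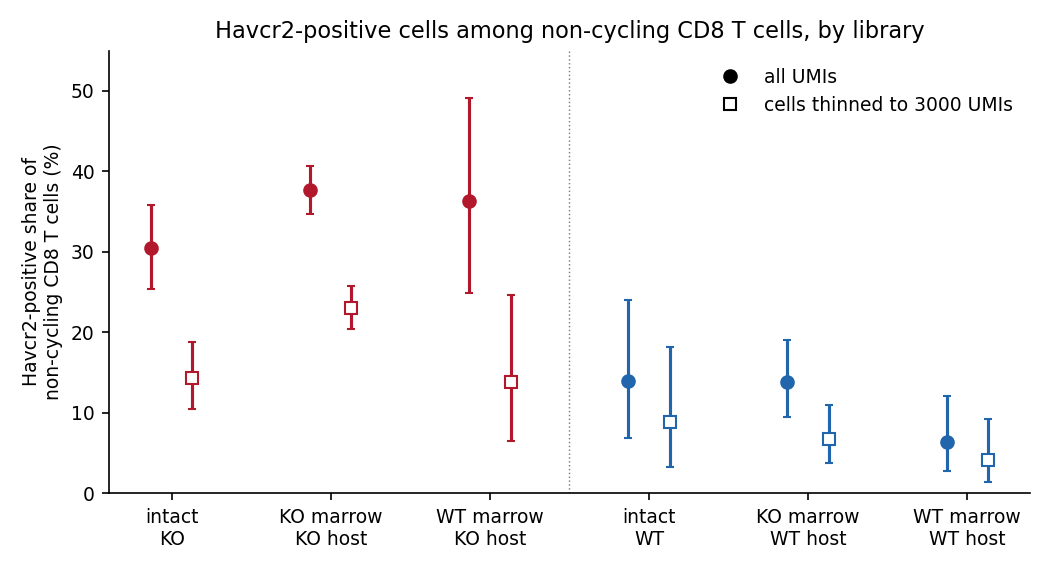
Percentage of non-cycling CD8 T cells with at least 1 Havcr2 UMI in each of the 6 libraries, with the 3 KO-host libraries left of the 3 WT-host libraries; bars on the points are 95% exact binomial intervals and cover counting error only. The KO-host libraries lie at 30.4 to 37.6% and the WT-host libraries at 6.35 to 13.9%.

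Depth and free RNA both enter such a share. With every cell thinned to 3000 UMIs the shares were 14.3, 23 and 13.8% in KO hosts (intact KO, KO marrow, WT marrow) against 8.82, 6.70 and 4.07% in WT hosts (intact WT, KO marrow, WT marrow), and the mean log2 ratio was 1.41 with the same p of 0.1. Among B cells, which should lack the gene, a Havcr2 UMI was found in 3.56, 9.41 and 5.0% of cells in KO hosts in that order, against 5.91 and 2.17% in intact WT mice and under KO marrow in WT hosts. Under WT marrow in WT hosts 0 of only 8 B cells had one, with an upper 95% limit of 36.9%. Thinned, the B cell share was at most 3.03%, which was 1 of 33 cells under KO marrow in KO hosts. The thinned CD8 share of 4.07% under WT marrow in WT hosts, 5 of 123 cells, lay close to that highest B cell share. That library itself held only 4 B cells to thin, 0 of them with Havcr2, too few to give its own background.

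By immune genotype the share of non-cycling CD8 T cells overlapped. The KO-marrow and intact KO libraries held 30.4, 37.6 and 13.8% members, against 13.9, 36.4 and 6.35% with WT immune cells. The mean log2 ratio was 0.77 (two-sided exact permutation p = 0.5), and it was 0.16 without the library of WT marrow in WT hosts. Over all cells kept as the denominator, the order was the other way round. Members were then 0.51 to 4.94% of cells with KO immune cells, against 0.123 to 0.417% with WT immune cells, with no overlap; on the log2 scale the ratio averaged 2.96 (exact permutation p = 0.1, two-sided). By host that share was 0.417 to 4.94% in KO hosts, against 0.123 to 0.51% in WT hosts, with overlap, and averaged 2.76 (exact permutation p = 0.2, two-sided). Cycling CD8 T cells, which the rule left out, carried Havcr2 in 57.8, 49.7 and 42.1% of cells in KO hosts (intact KO, KO marrow, WT marrow), against 50.0, 14.3 and 9.52% in WT hosts; in the intact WT mice this was 6 of 12 cells.

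Within the members, the list of killing granule genes held the largest number of calls of the 20 lists by host genotype. By share of its tested genes the naive and memory list ranked above it, with 2 higher and 4 lower of 13 tested in KO hosts. In all, 69 of 4107 genes tested differed with host genotype (1.68% of those tested), 40 higher (0.974%) and 29 lower (0.706%) in KO hosts. Of 19 genes on the cytotoxic granule list 18 were tested, and 7 were higher and 0 lower in KO hosts; the list's median log2 fold change was 0.38, against -0.02 over all genes tested. Without KO marrow in WT hosts 36 genes passed, and 7 without the immune term in the model. Among macrophage-low members 21 of 3388 genes differed (0.62%), 19 higher (0.561%) and 2 lower (0.059%), and 5 granule genes were higher: Prf1, Gzme, Gzmd, Serpinb9b and Serpinb6b.

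Prf1, which encodes perforin, the pore-forming protein that lets granzymes into the target cell, had 264, 1117 and 1434 CPM in members from KO hosts (intact KO, KO marrow, WT marrow), against 93.4, 186 and 147 CPM in members from WT hosts (intact WT, KO marrow, WT marrow). Every KO-host value lay above every WT-host value. The log2 fold change of Prf1 was 2.53 (SE 0.28, adjusted p = 6.7e-06), and Prf1 stayed past the threshold under every alternative run. At 3000 UMIs per cell, a Prf1 UMI was found in 32.2, 76.7 and 78.3% of members from KO hosts, against 30.0, 53.6 and 50.0% from WT hosts. Without thinning Prf1 was found in 58 of 94, 355 of 402 and 22 of 24 members from KO hosts, against 5 of 10, 21 of 30 and 5 of 8 from WT hosts, and among thinned B cells in at most 2.27%. The intact pair hardly differed in the thinned share, and its WT library holds 10 members.

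Gzmd and Gzme encode neighbouring, closely related serine proteases of the granule. Gzme had 55.4, 995 and 672 CPM in members from KO hosts (intact KO, KO marrow, WT marrow), against 0, 33.8 and 0 CPM in WT hosts (intact WT, KO marrow, WT marrow). Its log2 fold change was 5.21 (SE 0.46, adjusted p = 2.44e-07). Gzmd had 145, 1655 and 395 CPM in KO hosts, against 0, 266 and 0 CPM in WT hosts, giving 3.07 ± 0.41 (SE) as the log2 fold change (adjusted p = 0.000263). The Gzmd groups overlapped, since KO marrow in WT hosts lay above intact KO.

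Few cells carried most of this RNA. Gzmd was detected in 13 of 94, 136 of 402 and 5 of 24 members from KO hosts, against 0 of 10, 3 of 30 and 0 of 8 from WT hosts. Under KO marrow in KO hosts 41 cells held 84.8% of 5733 Gzmd UMIs, and 1 cell held 1123; under KO marrow in WT hosts 1 cell held 43 of 63 Gzmd UMIs. The Gzmd level of a library with few members thus rests on single cells.

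The near identity of these genes also limits how well their reads can be told apart. The stretches below run from 250 bases before to 50 bases after the transcript start of each gene, from RefSeq on GRCm38.p6, and are shown because the granzymes lie side by side on chromosome 14, all on the minus strand, while Gzmd and Gzme passed the test for host genotype and Gzmb and Gzmc did not. Capitals mark TGTGGT, the core bound by runt factors such as RUNX3, in either orientation (ACCACA on the other strand), and TGANTCA, the core bound by AP-1. Gzmd lies at chr14:56132544-56132843, Gzme at chr14:56120576-56120875, Gzmc at chr14:56234608-56234907 and Gzmb at chr14:56262285-56262584.
Gzmd: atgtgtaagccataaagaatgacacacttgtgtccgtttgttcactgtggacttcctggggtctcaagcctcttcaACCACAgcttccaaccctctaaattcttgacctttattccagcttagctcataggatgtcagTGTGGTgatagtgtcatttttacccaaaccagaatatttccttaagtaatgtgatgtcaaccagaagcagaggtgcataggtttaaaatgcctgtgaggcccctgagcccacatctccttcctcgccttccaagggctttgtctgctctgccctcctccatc
Gzme: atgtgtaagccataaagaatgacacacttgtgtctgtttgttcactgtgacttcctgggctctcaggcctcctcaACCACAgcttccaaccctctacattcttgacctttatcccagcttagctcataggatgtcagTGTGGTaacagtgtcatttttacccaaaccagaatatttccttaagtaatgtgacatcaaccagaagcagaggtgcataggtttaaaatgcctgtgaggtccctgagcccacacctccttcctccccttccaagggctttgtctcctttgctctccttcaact
Gzmc: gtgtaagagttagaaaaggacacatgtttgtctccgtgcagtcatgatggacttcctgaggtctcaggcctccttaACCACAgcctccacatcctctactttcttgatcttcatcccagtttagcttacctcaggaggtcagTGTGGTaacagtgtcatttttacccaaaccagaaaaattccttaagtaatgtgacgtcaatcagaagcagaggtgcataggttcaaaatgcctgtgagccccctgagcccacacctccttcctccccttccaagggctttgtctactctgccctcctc
Gzmb: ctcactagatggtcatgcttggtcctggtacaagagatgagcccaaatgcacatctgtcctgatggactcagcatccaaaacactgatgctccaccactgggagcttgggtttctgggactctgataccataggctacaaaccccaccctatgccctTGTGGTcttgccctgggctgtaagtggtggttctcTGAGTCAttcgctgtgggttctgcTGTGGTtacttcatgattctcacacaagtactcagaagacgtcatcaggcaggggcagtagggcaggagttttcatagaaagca
Gzmd and Gzme were 93.4% identical over this window and 87.1% over the last 400 bases of the transcript, where this 3′ assay reads. Gzmd and Gzmb shared 45.0% and 46.6%, and Gzmd and Gzmc 82.7% and 49.6%. A high identity over this window was thus also found with Gzmc, which did not pass by host genotype. Each of the 4 windows held 2 copies of TGTGGT, a word found in 16.8% of 32851 promoters, and the Gzmb window alone of these 4 held TGANTCA, found in 7.81%. A match of letters is a description and not a binding site. UMIs of Gzmd, Gzme, Gzmf and Gzmg could have been split between these copies, so their separate levels are uncertain.

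Other granzymes did not pass the test for host genotype. Gzmb, the most studied granzyme, had 761, 2995 and 1712 CPM in KO hosts (intact KO, KO marrow, WT marrow), against 140, 1175 and 4067 CPM in WT hosts (intact WT, KO marrow, WT marrow); its log2 fold change was 0.57 with an adjusted p of 0.97. Gzmf had 215, 2958 and 823 CPM in KO hosts, against 46.7, 4413 and 3883 CPM in WT hosts, with a log2 fold change of -0.99 (adjusted p = 0.872). The WT-host Gzmf levels came from few cells: 2 members held 1044 UMIs under KO marrow and 1 member held all 211 under WT marrow. The Gzmb level of 4067 CPM under WT marrow in WT hosts also leaned on 1 cell, which held 135 of 221 UMIs among 8 members.

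Serpins that block granzymes inside the killer cell were higher in KO hosts as well. Serpinb9b had 25.8, 388 and 141 CPM in KO hosts (intact KO, KO marrow, WT marrow) and 0 in all 3 WT-host libraries, at least 41.1-fold higher against a floor of 3 counts over the WT-host group (edgeR adjusted p = 6.7e-06; DESeq2 adjusted p = 0.497). It was detected in 6 of 94, 146 of 402 and 4 of 24 members from KO hosts. The 41.1-fold bound pools UMIs over libraries, and 1343 of the 1414 Serpinb9b UMIs came from KO marrow in KO hosts. One UMI was worth 6.19 CPM in intact WT members and 17.9 CPM under WT marrow in WT hosts, so the bound is weaker within those pairs. Serpinb6b had 110, 376 and 414 CPM in KO hosts, against 17.5, 76.1 and 92.0 CPM in WT hosts, giving 2.36 ± 0.35 (SE) as the log2 fold change (adjusted p = 0.00026). Its groups did not overlap, but the gap from 110 CPM in intact KO to 92.0 CPM under WT marrow in WT hosts was narrow. In the latter library 1 UMI was worth 17.9 CPM. Serpinb9, an inhibitor of granzyme B, had 150, 449 and 437 CPM in KO hosts, against 11.7, 156 and 258 CPM in WT hosts (log2 fold change 1.61, adjusted p = 0.0252); over macrophage-low members the adjusted p was 0.17. Cst7, an inhibitor of granule cathepsins, rose by a log2 fold change of 1.07 (adjusted p = 0.0407).

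**Figure D2:**
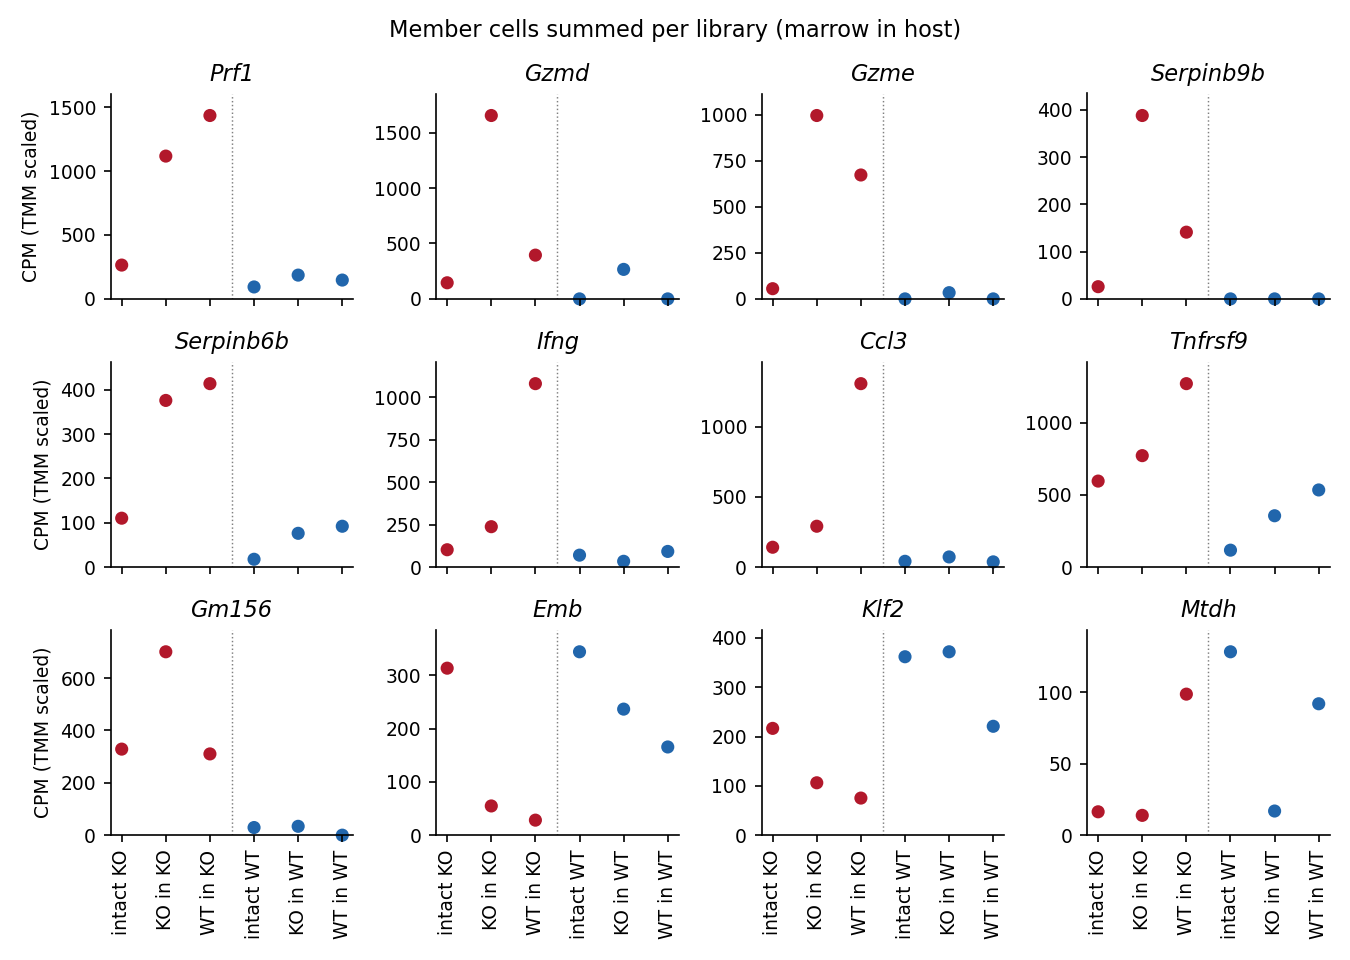
Level of 12 genes in members of each library, in TMM-scaled CPM, with KO-host libraries in red on the left of each panel and WT-host libraries in blue on the right; each point is 1 library. Prf1, Serpinb6b and Tnfrsf9 separate the hosts in the upward direction, Klf2 in the downward direction, and Mtdh separates by marrow instead.

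Among secreted factors, Ifng and Ccl3 were higher in KO hosts and 0 of the 8 tested were lower, from a list of 15. Ifng, the interferon that activates macrophages, had 102, 238 and 1082 CPM in KO hosts (intact KO, KO marrow, WT marrow), against 70.0, 33.8 and 92.0 CPM in WT hosts (intact WT, KO marrow, WT marrow). The groups did not overlap, and the log2 fold change was 2.96 (SE 0.34, adjusted p = 6.7e-06). Ifng was detected in 33 of 94, 161 of 402 and 16 of 24 members from KO hosts. From WT hosts it was detected in 6 of 10, 6 of 30 and 3 of 8, so by detection the intact pair ran the other way. Under WT marrow in KO hosts 1 cell held 88 of 230 Ifng UMIs, and the level under WT marrow in WT hosts came from 5 UMIs. Ccl3, a chemokine that attracts myeloid cells and lymphocytes, had 141, 291 and 1307 CPM in KO hosts, against 40.9, 71.9 and 36.8 CPM in WT hosts (log2 fold change 3.08, SE 0.40, adjusted p = 0.000565). The library of WT marrow in KO hosts was highest for both; without it Ccl3 was at 1.95 with an adjusted p of 0.061. Ccl4, its relative, was at 2.20 and did not pass (adjusted p = 0.724).

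Tnfrsf9, the costimulatory receptor 4-1BB induced by antigen, was the only one of 11 tested costimulatory receptors to pass. It had 595, 771 and 1270 CPM in KO hosts (intact KO, KO marrow, WT marrow), against 117, 355 and 534 CPM in WT hosts (intact WT, KO marrow, WT marrow), which gave 1.63 ± 0.29 (SE) as the log2 fold change (adjusted p = 0.00554). The groups did not overlap; without WT marrow in KO hosts the adjusted p was 0.079. Sh2d2a, an adaptor of T cell receptor signalling, was at 195, 558 and 715 CPM in KO hosts, against 70.0, 186 and 147 CPM in WT hosts (log2 fold change 1.78, adjusted p = 0.000684). Cd27, a receptor of the tumour necrosis factor receptor family, and Il7r, the interleukin-7 receptor, are on the naive and memory list and yet were higher in KO hosts, by 1.56 (adjusted p = 0.0183) and 1.32 (adjusted p = 0.047). Over macrophage-low members they were at 1.43 and 2.04 and did not pass (adjusted p = 0.18 and 0.0515). Il12rb2 and Il2rb, subunits of the interleukin-12 and interleukin-2 receptors, were at 1.86 and 1.01. They were the 2 of 11 tested cytokine receptor genes that were higher, against 0.974% of all genes tested. Neither passed among macrophage-low members.

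Of 14 inhibitory receptors on the list 10 were tested, 1 was higher and 0 lower, and the median was 0.01. That 1 was Ctla4, at 190, 148 and 522 CPM in KO hosts (intact KO, KO marrow, WT marrow), against 204, 93.0 and 147 CPM in WT hosts (intact WT, KO marrow, WT marrow), with a log2 fold change of 1.21 (adjusted p = 0.0432, and 0.647 over macrophage-low members). The groups overlapped. Pdcd1 had 225, 444 and 785 CPM in KO hosts, against 111, 380 and 570 CPM in WT hosts (log2 fold change 0.66, adjusted p = 0.376), and Lag3 60.4, 118 and 183 CPM, against 11.7, 80.3 and 36.8 CPM (1.26, adjusted p = 0.137). Of 18 genes on the exhaustion transcription factor list 15 were tested and 0 passed edgeR's test, where 397 of the 4107 genes had an unadjusted p under 0.05; 13 of the 15 had a positive fold change, with a median of 0.63.

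Genes that follow antigen receptor engagement moved in part. Of 15 antigen receptor response genes 11 were tested, and Dusp4, a phosphatase that limits MAP kinase signalling, and Cd6, a co-receptor, were higher, by 2.11 (adjusted p = 0.0174) and 1.73 (adjusted p = 0.0177), neither passing over macrophage-low members (0.185 and 0.18); 10 of the 11 had a positive fold change and the median was 0.46. Of 13 antigen receptor signalling genes, all tested, Sh2d2a alone passed. Jund, an AP-1 subunit on the dissociation stress list of 12, was higher by 0.88 (adjusted p = 0.0235), and Isg15 was the 1 of 10 tested interferon response genes that was higher, at 2.26 (adjusted p = 0.00557, and 0.123 over macrophage-low members). For MHC class I genes, NK receptors and the partners of TIM-3, 0 of 11, 0 of 8 and 0 of 5 tested passed edgeR, as for the 7 cholesterol genes and the 9 Bcl2 family and death genes tested; its unadjusted p was under 0.05 for 397 of all 4107 genes.

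Several named genes have no well-known role in CD8 T cells. Gm156 had 329, 700 and 310 CPM in KO hosts (intact KO, KO marrow, WT marrow), against 29.2, 33.8 and 0 CPM in WT hosts (intact WT, KO marrow, WT marrow), which gave 3.87 ± 0.44 (SE) as the log2 fold change (adjusted p = 1.27e-05). Nrgn, which encodes the calmodulin-binding protein neurogranin of neurons, had 111, 237 and 339 CPM in KO hosts, against 29.2, 25.4 and 0 CPM in WT hosts (3.22, adjusted p = 0.000141). Slc17a6, a vesicular glutamate transporter, had 27.7, 62.9 and 240 CPM in KO hosts, against 0, 4.23 and 0 CPM in WT hosts (5.39, SE 0.78, adjusted p = 0.000211). For all 3 genes every KO-host library lay above every WT-host library. Zbtb32, a zinc finger repressor, was at 3.65 (adjusted p = 0.0152), and Cxcl10, a ligand of CXCR3, at 2.90 (adjusted p = 0.00944), but neither passed over macrophage-low members (adjusted p = 0.117 and 0.475).

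The genes lower in KO hosts were split between T cell genes and macrophage genes. Klf2, a factor that keeps T cells quiescent and circulating, had 217, 106 and 75.2 CPM in KO hosts (intact KO, KO marrow, WT marrow), against 362, 372 and 221 CPM in WT hosts (intact WT, KO marrow, WT marrow); its log2 fold change was -1.63 (SE 0.29, adjusted p = 0.00277) and -1.72 over macrophage-low members (adjusted p = 0.157). Emb, which encodes embigin, a membrane partner of lactate transporters, had 314, 54.9 and 28.2 CPM in KO hosts, against 344, 237 and 166 CPM in WT hosts (-1.85, adjusted p = 0.00545). Emb was the only lower gene to pass in both sets of cells, and without KO marrow in WT hosts its adjusted p was 0.71. Lef1, Dapl1 and S1pr1, genes of naive and recirculating T cells, were at -3.89, -6.07 and -4.47. Over macrophage-low members Dapl1 and S1pr1 were not tested and Lef1 was at -3.43. There 0 of 10 tested naive and memory genes passed edgeR's test, where 215 of 3388 genes had an unadjusted p under 0.05. Lef1 turned to 0.87 without KO marrow in WT hosts.

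Macrophage-abundant genes were common among the lower ones. Of the 29 lower genes 16, and of the 40 higher genes 1, were at least 5-fold higher in macrophages than in Havcr2-zero cells, against 6.14% of genes tested. Ccr2, the monocyte chemokine receptor that effector T cells also use, had 160, 36.7 and 14.1 CPM in KO hosts (intact KO, KO marrow, WT marrow), against 496, 118 and 36.8 CPM in WT hosts (-2.01, adjusted p = 0.00545), and did not pass over macrophage-low members (adjusted p = 0.866). Thbs1, thrombospondin, was at -2.32 (adjusted p = 0.00277) and at -0.61 over macrophage-low members (adjusted p = 0.927). Cd9 was at -1.51 in all members and at 0.31 in macrophage-low ones. Ccl9, F10 and Pf4, further genes of the lower set, had log2 fold changes of -1.81, -1.72 and -1.43, and Arl4c was at -1.43. All 40 higher genes kept a positive sign over macrophage-low members and 16 of them passed there too, and of the 29 lower genes 17 could be tested there, 14 kept a negative sign and 1 passed.

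**Figure D3:**
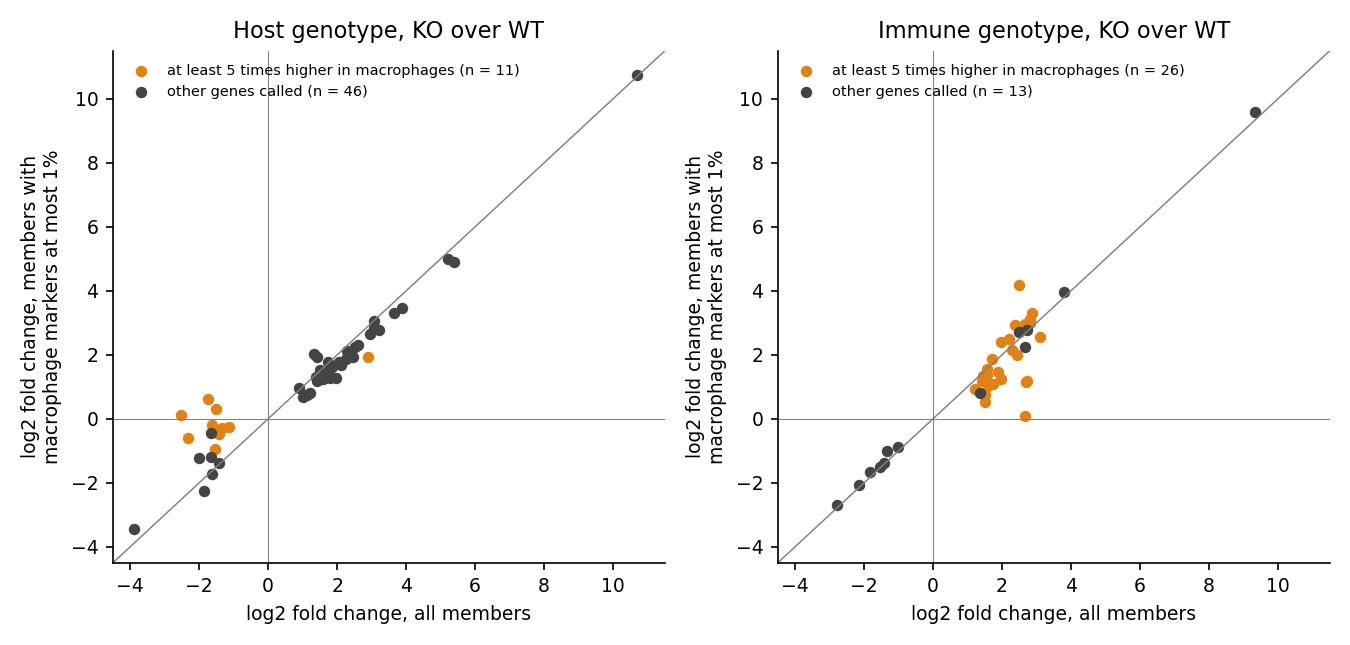
Log2 fold change of each called gene over all members (horizontal) and over macrophage-low members (vertical), for host genotype and for immune genotype; orange points are genes at least 5-fold higher in macrophages, and genes not tested in macrophage-low members are not drawn. The host panel holds 46 other genes and 11 macrophage-abundant ones, and the immune panel 13 and 26.

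Most of the genes that differed with immune genotype were macrophage-abundant. The immune genotype changed 51 of 4107 genes (1.24%), 44 higher (1.07%) and 7 lower (0.17%) with KO immune cells; 85 passed without intact KO, 86 without intact WT and 33 without WT marrow in KO hosts. Of the 44 higher genes 34 were macrophage-abundant, and of the 7 lower genes 0. Among macrophage-low members 14 of 3388 genes differed (0.413%), 10 higher (0.295%) and 4 lower (0.118%), and 9 of the 44 higher genes passed in both: Fcer1g, Il1b, Gzmd, Gzmg, Gzmc, H2-Ab1, H2-Aa, H2-Eb1 and Cd74.

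MHC class II genes, which belong to antigen-presenting cells and which mouse T cells do not normally make, were H2-Ab1, H2-Aa and H2-Eb1 among these 9, beside Cd74, their invariant chain. H2-Aa had 2680, 1118 and 507 CPM with KO immune cells (intact KO, KO marrow in KO hosts, KO marrow in WT hosts), against 356, 103 and 55.2 CPM with WT immune cells (intact WT, WT marrow in KO hosts, WT marrow in WT hosts). The groups did not overlap and the log2 fold change was 2.82 (SE 0.30, adjusted p = 3.15e-06). Over macrophage-low members it was 3.13 (adjusted p = 0.0005), and without the cells of highest doublet score 1.5 (adjusted p = 0.871). The macrophages of the same libraries held 7251, 8252 and 2047 CPM of H2-Aa with KO immune cells, against 1607, 2554 and 970 CPM with WT immune cells. The part of macrophage RNA in this result was not tested. Mmp12, a macrophage elastase, had 180, 197 and 1112 CPM with KO immune cells, against 5.84, 14.1 and 0 CPM with WT immune cells, and Hmox1, haem oxygenase, 63.6, 109 and 511 CPM, against 5.84, 32.9 and 36.8 CPM. Neither had enough counts to be tested over macrophage-low members.

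Of the granule genes, 3 of the 18 tested were higher with KO immune cells, all granzymes, and 0 were lower, against 1.07% higher among all genes tested. Gzmc had 383, 284 and 524 CPM with KO immune cells (intact KO, KO marrow in KO hosts, KO marrow in WT hosts), against 17.5, 47.0 and 0 CPM with WT immune cells (intact WT, WT marrow in KO hosts, WT marrow in WT hosts), which gave 3.78 ± 0.47 (SE) as the log2 fold change (adjusted p = 0.000191). The groups did not overlap; under KO marrow in WT hosts 2 cells held 124 Gzmc UMIs. Gzmg had 1.89, 137 and 135 CPM with KO immune cells and 0 in all 3 WT libraries, at least 14.0-fold higher against a floor of 3 counts over the group (edgeR adjusted p = 0.000372). That bound pools UMIs over libraries, and 473 of the 508 came from KO marrow in KO hosts. The intact KO level lay below the worth of 1 UMI in intact WT members, 6.19 CPM. A single cell held all 32 Gzmg UMIs under KO marrow in WT hosts, and without WT marrow in KO hosts the adjusted p was 0.148. Gzmd rose with the KO immune genotype too, by 2.49 (SE 0.41, adjusted p = 0.00208).

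The 7 genes lower with KO immune cells were Ifng, Rgs16, Ctla4, Ddit4, Zfp36l2, Mtdh itself and Slc17a6, the last at -1.81 (adjusted p = 0.0475) and at 4.47 without WT marrow in KO hosts. Ifng had 102, 238 and 33.8 CPM with KO immune cells (intact KO, KO marrow in KO hosts, KO marrow in WT hosts), against 70.0, 1082 and 92.0 CPM with WT immune cells (intact WT, WT marrow in KO hosts, WT marrow in WT hosts); the log2 fold change was -2.16 (SE 0.31, adjusted p = 0.000191). The groups overlapped, and without WT marrow in KO hosts the value was -1.82 with an adjusted p of 0.811. Rgs16, a brake on chemokine receptor signalling, had 198, 317 and 76.1 CPM with KO immune cells, against 146, 752 and 442 CPM with WT immune cells (-1.53, adjusted p = 0.00744). It was higher by host genotype, at 1.59 (adjusted p = 0.00686). Zfp36l2, an RNA-binding protein that promotes decay of cytokine messages, had 152, 178 and 325 CPM with KO immune cells, against 455, 433 and 534 CPM with WT immune cells (-1.02, adjusted p = 0.0497), with no overlap; over macrophage-low members its adjusted p was 0.527. Ctla4 was at -1.41 (adjusted p = 0.0112) and Ddit4, a stress-induced inhibitor of mTOR, at -1.34 (adjusted p = 0.0477), and neither passed over macrophage-low members. Ikzf4, lower in 3 of 3 matched pairs, was at -1.29 and did not pass (adjusted p = 0.326).

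Set against Havcr2-zero cells of the same libraries, members had less of the naive and memory genes and more of the glycolytic genes. Both states were compared within libraries (12 sums, a term for each library, 5 residual degrees of freedom). Of 7965 genes tested 341 differed (4.28%), 166 higher (2.08%) and 175 lower (2.2%) in members; Havcr2, which chose the cells, was not tested. The count was 25 without intact KO, 51 without KO marrow in WT hosts and 187 without KO marrow in KO hosts. Over macrophage-low cells 339 of 7141 genes differed (4.75%), 126 higher (1.76%) and 213 lower (2.98%). Members had a median of 13709, 7580.5 and 8194.5 UMIs per cell in KO hosts (intact KO, KO marrow, WT marrow), where Havcr2-zero cells had 6629, 5796.5 and 7273.5; in WT hosts (intact WT, KO marrow, WT marrow) members had 10594, 5670 and 5761.5 and Havcr2-zero cells 5740, 5676 and 6219. Of the 166 higher genes 85 were macrophage-abundant, against 4.65% of genes tested, and of the 175 lower genes 0.

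Of 18 naive and memory genes 17 were tested, 10 were lower and 0 higher in members, and the median log2 fold change was -1.14. Among all genes tested 2.2% were lower. Tcf7, which encodes the factor TCF-1 that sustains memory and stem-like T cells, had 26.3, 1.43 and 0 CPM in members from KO hosts (intact KO, KO marrow, WT marrow) and 51.5, 37.5 and 0 CPM in members from WT hosts (intact WT, KO marrow, WT marrow). The Havcr2-zero cells of the same libraries had 98.8, 15.9 and 152 CPM in KO hosts and 275, 164 and 47.2 CPM in WT hosts. Tcf7 was lower in members in 6 of 6 libraries, giving -2.56 ± 0.31 (SE) as the log2 fold change (adjusted p = 0.00365). S1pr1, the receptor for exit from lymph nodes, was at -2.23 (SE 0.30, adjusted p = 0.00365) and Lef1 at -1.96 (adjusted p = 0.0219). Cxcr3, a receptor that draws T cells into inflamed tissue, was at -2.19 (adjusted p = 0.00708). Over macrophage-low cells 11 naive and memory genes were lower, Tcf7 at -3.0.

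Of 18 glycolysis and hypoxia genes all were tested, 12 were higher and 0 lower, with a median of 0.65. Among all genes tested 2.08% were higher. Pkm, pyruvate kinase, had 647, 624 and 581 CPM in members from KO hosts (intact KO, KO marrow, WT marrow) and 441, 713 and 509 CPM in members from WT hosts (intact WT, KO marrow, WT marrow). Havcr2-zero cells had 349, 465 and 311 CPM of Pkm in KO hosts and 264, 367 and 417 CPM in WT hosts. Pkm was higher in members in each library, by 0.71 (SE 0.13, adjusted p = 0.00708); the adjusted p was 0.063 without intact KO. Gapdh was at 0.73 (SE 0.12, adjusted p = 0.00398), Ldha, lactate dehydrogenase, at 0.62 (adjusted p = 0.0092) and Bnip3, a hypoxia-induced mitophagy receptor, at 1.30 (adjusted p = 0.0212). Hk2, hexokinase, was at 1.14 over all cells (adjusted p = 0.0262) and at 0.44 over macrophage-low ones (adjusted p = 0.329). Over macrophage-low cells 10 of the 18 were higher, with a median of 0.53.

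**Figure D4:**
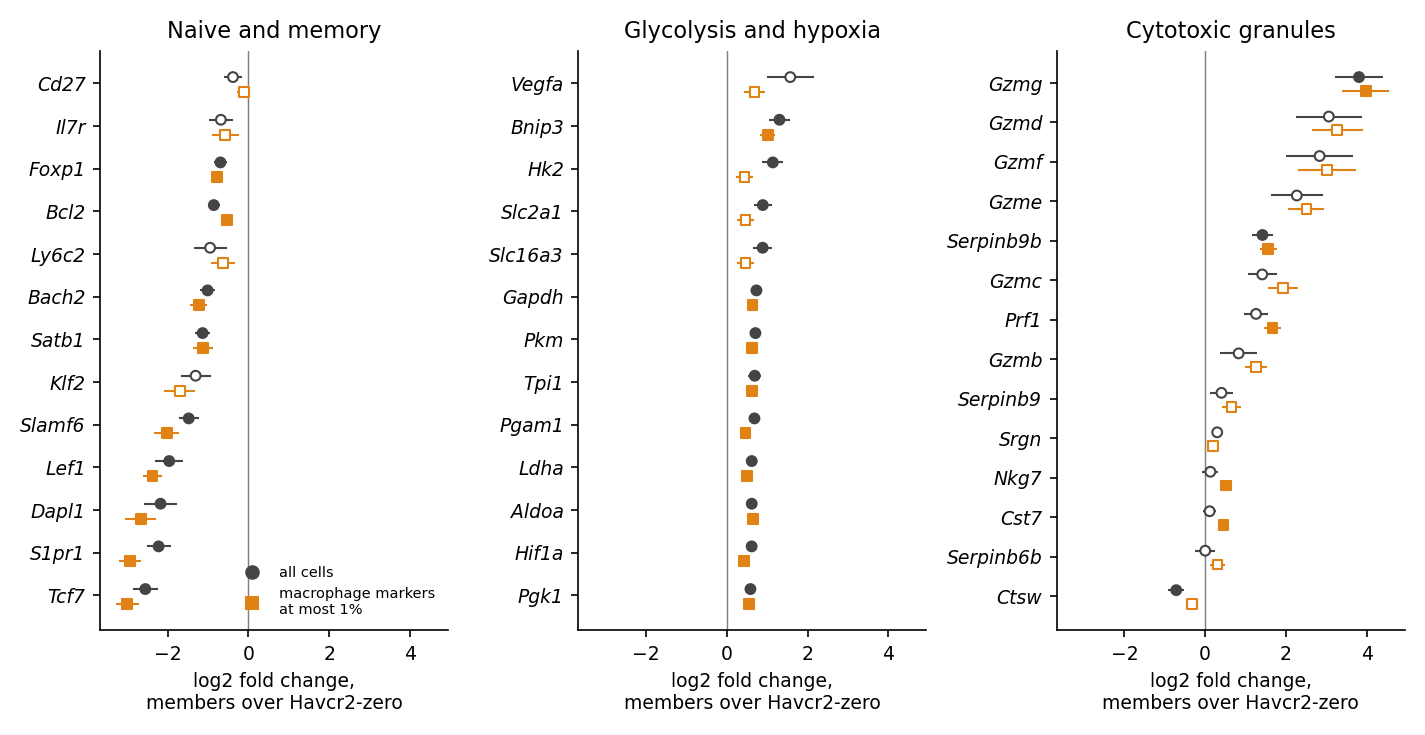
Log2 fold change, members over Havcr2-zero cells, of genes from the naive and memory, glycolysis and hypoxia, and cytotoxic granule lists, with bars of 1 standard error; filled circles passed at an adjusted p under 0.05 and orange squares are macrophage-low cells. Tcf7 lies at -2.56 and Gapdh at 0.73.

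Among effector genes, of 18 tested granule genes 2 were higher, Serpinb9b at 1.42 (adjusted p = 0.0092) and Gzmg at 3.81 (adjusted p = 0.0319), and 1 was lower, Ctsw; over macrophage-low cells 5 were higher (Cst7, Nkg7, Prf1, Serpinb9b and Gzmg) and 0 lower, with a median of 0.58. Prf1 was at 1.26 over all cells (adjusted p = 0.051) and at 1.67 over macrophage-low cells (adjusted p = 0.000203). Among 14 inhibitory receptors Lag3, at 1.11 (adjusted p = 0.0349, and 0.12 over macrophage-low cells), and Entpd1, the ectonucleotidase CD39, at 0.98 (adjusted p = 0.0106), were higher, and Cd160, at -1.0, was lower. Pdcd1 was at 0.48 and did not pass (adjusted p = 0.324). Of 17 tested exhaustion transcription factors 2 were higher and 1 lower. Rbpj and Id2 were higher by 0.73 and 0.54 and passed in macrophage-low cells as well, and Ikzf2, which encodes Helios, was at -0.71 (adjusted p = 0.0237, and 0.182 over macrophage-low cells). Spry1, an inhibitor of receptor signalling, was at 1.37 over all cells (adjusted p = 0.0276) and at 1.34 over macrophage-low ones (adjusted p = 0.00785), while Klra2, Cttnbp2nl and Cd300lf, at 1.75, 1.63 and 1.5, could not be tested there. Xcl1, the chemokine for cross-presenting dendritic cells, was at -2.43 (adjusted p = 0.0272), and Cd69, an early activation and residency receptor, at -1.05.

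The same genotype fit in Havcr2-zero cells called 9 of 8107 genes by host genotype (0.111%), all higher in KO hosts, and 5 by immune genotype (0.0617%). The host calls were Gzme, at 6.04 (adjusted p = 0.000934), Gzmd, Slc17a6, Ifng, at 2.30 (adjusted p = 0.0415), Dusp4, at 2.81 (adjusted p = 0.025), Serpinb9b, Igfbp7, Creb3l2 and Slc16a11, so several host calls of members were also made in Havcr2-zero cells. The immune calls were Gzmd, H2-Ab1, H2-Aa, at 1.87 (adjusted p = 0.0414), H2-Eb1 and Mtdh, each also called in members. Whether an effect differed between the 2 states was tested directly with an interaction term. The host effect differed in 17 of 7965 genes (0.213%), and members minus Havcr2-zero cells was positive for 9 (0.113%) and negative for 8 (0.1%). The immune effect differed in 8 genes (0.1%), with 3 positive (0.0377%) and 5 negative (0.0628%) differences; a negative difference can be a stronger decrease in members, as for Ifng by immune genotype (-2.16 in members and -0.41 in Havcr2-zero cells). Over macrophage-low cells these counts were 12 of 7141 genes (0.168%) for host and 18 (0.252%) for immune genotype. The host difference of Prf1 was 1.38 larger in members (adjusted p = 0.0208, and 0.347 over macrophage-low cells) and that of Ccl3 1.95 larger (SE 0.42, adjusted p = 0.00516). That of Gzmd was smaller in members, by -2.95 (SE 0.65, adjusted p = 0.00622): Gzmd had 51.5, 236 and 12.6 CPM in Havcr2-zero cells from KO hosts (intact KO, KO marrow, WT marrow), against 0, 4.57 and 0 CPM from WT hosts. Under KO marrow in WT hosts these were 5 UMIs in 2 Havcr2-zero cells, against 63 UMIs in 3 members, so the difference rests on few cells. The immune effect on Rgs16 in members minus that in Havcr2-zero cells was -2.67 (SE 0.39, adjusted p = 8.2e-08), from -1.53 in members and 1.01 in Havcr2-zero cells (adjusted p = 1). By DESeq2 the host effect differed in 0 genes, with 90 of 7965 at an unadjusted p under 0.05, and the immune effect in 1.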

How the data were processed

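Single-cell RNA libraries (10x Genomics 3' v3.1) of live CD45+ tumour cells were deposited as matrices of raw UMI counts, 1 per group. The counts were made by the authors with Cell Ranger, version 7.0.1 for the intact and 6.1.1 for the transplanted libraries, per the file headers; Seurat and build mm10 are named per the submitters' processing notes. The sources used here do not say whether introns were counted. Only the 30406 genes shared by all files were used.

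UMI counts of members and of Havcr2-zero cells were summed per library, scaled with TMM, filtered with filterByExpr and tested with the robust quasi-likelihood test of edgeR 4.0.16 (R 4.3.3, limma 3.58.1); scripts used Python 3.11.15 and scipy 1.17.1. The 12 genes that define the cells stayed in library sizes and were not tested. Genotype effects came from transplantation, host and immune terms; states were compared with a library term; a gene passed at an adjusted p under 0.05. Alternatives were DESeq2 1.42.0, its size factors, no filter, other cell limits and each library left out. Scrublet (scanpy 1.11.5) made 0 to 4 automatic calls per library, so no doublets were removed except in an alternative that drops the top 6% of scores. The scripts were tested on simulated data. Intervals and floors cover counting error only.

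Named genes were up to 10 per direction past the threshold with 1 sign in 3 of 3 matched pairs and the largest fold change (filled to 5 by the smallest pair difference), the 12 largest increases and 8 largest decreases between states, up to 6 members of each of 20 gene lists, any list member past the threshold, and Mtdh; 2 genes that the rule names are not reported here. The members and the lists were chosen with earlier results of these data known. Promoters came from RefSeq (GRCm38.p6; Biopython 1.88 for identity).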

Additional observations from a re-analysis of the deposited data

Results flagged for a closer look

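A difference between host or immune effects in members and in Havcr2-zero cells, tested by an interaction term in edgeR (adjusted p under 0.05), brought up each gene below; values are the effect in members minus that in Havcr2-zero cells, on the log2 scale. For host genotype, 9 differences were positive. These were S100a9 at 3.60, Ifit3 at 4.53, Isg15 at 2.11, Ccl3 at 1.95, Ccl4 at 1.82, Ly6c2 at 1.70, Plac8 at 1.66, Gzmb at 1.51 and Prf1 at 1.38. Among macrophage-low cells S100a9, Ccl3, Ly6c2, Plac8 and Gzmb passed again. The host effect of Gzmb within members did not pass by itself (0.57, adjusted p = 0.97), and it was -0.74 in Havcr2-zero cells. Under WT marrow in WT hosts 1 of 8 members held 135 of 221 Gzmb UMIs.

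For host genotype, 8 differences were negative. The T cell genes among them were Dapl1 at -3.22, Gzmd at -2.95 and Gzmf at -2.30, and the others were Slc7a2 at -2.72, Hmox1 at -2.31, Mmp12 at -2.07, Ccl9 at -1.82 and Fabp5 at -1.72. The WT-host member levels of Gzmd and Gzmf rest on few cells. Under KO marrow in WT hosts 3 members held 63 Gzmd UMIs and 2 held 1044 Gzmf UMIs. Under WT marrow in WT hosts 1 member held all 211 Gzmf UMIs. The limit on macrophage markers does not address this, and with it Gzmd and Gzmf passed among macrophage-low cells. For Slc7a2, Hmox1, Mmp12, Ccl9 and Fabp5 the adjusted p was 1 there.

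For immune genotype, Hmox1 at 3.17, Isg15 at 2.14 and Ftl1 at 1.31 had positive differences. Penk at -6.21, Rgs16 at -2.67, Atf3 at -1.90, Tnfrsf4 at -1.81 and Ifng at -1.80 had negative ones, and all 5 passed among macrophage-low cells. Of the 3 positive genes Isg15 passed there.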

How the results depend on the processing

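Counts of genes called, and the calls of many named genes, moved with the processing; the cause of each move was not tested. Of named genes called by host genotype, 29 lost their call and 7 kept it in transplanted libraries alone, 38 and 6 without the immune term, 25 and 16 without top doublet scores, and 21 and 14 in macrophage-low members; between states, 44 lost it and 9 kept it without intact KO. By host genotype, 69 genes in members became 19 with DESeq2, 137 with no filter on low counts, 26 without the top 6% of doublet scores, 107 with at least 2 Havcr2 UMIs, 21 in macrophage-low members, 9 in the transplanted libraries alone and 7 without the immune term; leaving out 1 library gave 36 to 83. By immune genotype, 51 became 30 with DESeq2, 89 with no filter, 9 at a C1q share under 0.2%, 20 without top doublet scores, 30 with at least 2 Havcr2 UMIs, 14 in macrophage-low members, 25 in transplanted libraries alone and 6 without the host term; leaving out 1 library gave 33 to 86. In Havcr2-zero cells the 9 host calls became 17 (DESeq2), 122 (no filter), 38 (C1q), 32 (doublet scores), 39 (macrophage-low) and 14 (transplanted), and 0 to 198 without 1 library; edgeR called 0 without KO marrow in KO hosts (259 of 7542 at an unadjusted p under 0.05) and 0 without KO marrow in WT hosts (285 of 8531), 40 with intact KO left out, 41 with intact WT left out, 72 without WT marrow in KO hosts and 198 without WT marrow in WT hosts. The 5 immune calls became 32 (no filter), 11 (macrophage-low) and 3 (transplanted), and 0 to 163 without 1 library; edgeR called 0 without KO marrow in KO hosts (97 of 7542 at an unadjusted p under 0.05) and 0 without KO marrow in WT hosts (538 of 8531), 15 without intact KO, 17 without intact WT and 163 without WT marrow in WT hosts. The 17 host differences between states became 0 (DESeq2; 90 of 7965 at an unadjusted p under 0.05), 11 (no filter), 30 (C1q) and 11 (transplanted), and 1 to 21 without 1 library, with 1 without KO marrow in WT hosts. The 8 immune differences became 1 (DESeq2), 18 (C1q), 14 (doublet scores), 2 (at least 2 Havcr2 UMIs), 18 (macrophage-low) and 15 (transplanted), and 2 to 15 without 1 library, with 2 without WT marrow in WT hosts. The 341 genes that differed between states became 215 with DESeq2, 748 with no filter and 689 with at least 2 Havcr2 UMIs; leaving out 1 library gave 25 to 431. Without the replicate block, that is with no library term, edgeR called 0 genes between states, with 597 of 5924 at an unadjusted p under 0.05. The genotype fits had no pair block: each group had 1 library, and marrow and transplantation were terms in its place. The mean log2 ratio of the member share by host ranged over 1.33 to 1.89 with 1 library left out, and by immune genotype over 0.16 to 1.42. Signs turned for Cd9 by host in macrophage-low members (0.31), for Mmp12 by host at a C1q share under 0.2% (1.29), for Ccl9 by immune genotype at that share (-0.37), for Slc17a6 by immune genotype without WT marrow in KO hosts (4.47; range -1.92 to 4.47 with 1 library left out), and without KO marrow in WT hosts for Mmp12 (1.58; range -2.50 to 1.58), Hmox1 (0.70; range -2.15 to 0.70) and Lef1 (0.87; range -4.54 to 0.87) by host. Gzme, Gm156, Nrgn and Prf1 passed by host genotype under every alternative run. Libraries with 8, 10, 24 and 30 members limit every gene level near 1 UMI.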

Other observations

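Ribosomal protein genes, a group chosen after their values were seen, were lower in members than in Havcr2-zero cells. Of 80 tested 52 were lower and 0 higher, with a median log2 fold change of -0.39. Over all 7965 genes tested 2.2% were lower and 2.08% higher, with a median of -0.005. Among macrophage-low cells again 52 of the 80 were lower, against 2.98% of 7141 genes tested. The ribosomal share of all UMIs was 22.1, 28.5 and 29.5% in members from KO hosts (intact KO, KO marrow, WT marrow), where Havcr2-zero cells held 28.6, 32.2 and 36.8%. In WT hosts (intact WT, KO marrow, WT marrow) it was 21.4, 28.4 and 33.9% in members, and 33.5, 36.9 and 33.1% in Havcr2-zero cells, so the share was lower in members in 5 of 6 libraries, WT marrow in WT hosts being the exception.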
